A study of Mus musculus with 12 samples.

Results

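The change from undifferentiated stem cells to embryoid bodies was described here in wild-type (WT) cells of the mouse line E14, embryonic stem cells (ESCs) that derive from blastocysts. When such cells are grown as floating clumps, called embryoid bodies (EBs), they lose pluripotency and give rise to cells of the germ layers. All genes of the 3 WT EB libraries were compared with the 3 WT ESC libraries, which are 6 of the 12 libraries of the series. The other 6 came from cells with an shRNA knockdown (KD) of the circular RNA circKat6b-e2, sampled at the same stages. They entered the fit through the shared estimate of the spread, the filter on low counts and the scaling. ESCs of the series were kept on gelatin in serum with LIF, the MEK inhibitor PD0325901 and the GSK3 inhibitor CHIR99021. EBs were taken at day 6. The labels give no EB medium, and they do not say whether the WT cells carried a control shRNA. They number the 3 libraries of a group as replicates without saying that they came from separate cultures, so p-values measure the spread between these libraries, which may be technical. Of the 52636 genes in both deposited tables, 18975 passed a filter on low counts and were tested, and 23946 had no count in any WT library. With the 6 WT libraries alone, 17592 genes passed the filter.

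Naive pluripotency is the state of the early epiblast, held in culture by LIF acting through STAT3, by block of the ERK cascade and by WNT signalling. POU5F1, SOX2 and NANOG bind the enhancers of their own genes and of factors such as ESRRB, KLF4 and ZFP42. When the 2 inhibitors and LIF are removed, cells pass through a formative state marked by OTX2 and FGF5 before the germ layers appear, and the outer cells of EBs can form an extraembryonic endoderm with its own basement membrane.

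Total counts per library ran from 29.0 to 37.8 M in ESCs and from 31.1 to 35.0 M in EBs, and the first principal component of the 6 libraries, which held 98.5% of the variance, separated the stages. ESC replicate 2 stood apart from the other ESC libraries. The chi-square per gene against them was 55.4 and 56.0, compared with 9.11 between those 2 and 5.28 to 6.35 between EB libraries, and values without that library are given where they change a call. Stage cannot be told apart from the table and the set of libraries it was deposited with. Longer transcripts were higher in EBs. Over deciles of summed exon length, the median log2 fold change (EB minus ESC throughout) ran from −1.44 in the decile of up to 879 bases to 1.38 in the decile from 8782 bases, and in the KD libraries from −1.36 to 1.47. Genes called higher had a median length of 4886 bases and genes called lower one of 2573 bases. The part of length in each result was not tested. A second fit in which the trend with length was taken out, the length offset, is therefore given beside results that it turns. Along GC content of the transcript the median ran from 1.08 in the lowest decile to −0.52 in the highest. A scaling by library size alone, without the TMM factors (0.745 to 0.866 in ESCs, 1.184 to 1.191 in EBs), moved the median log2 fold change by 0.53 upwards. Transcripts of 3 Y-linked genes, Ddx3y, Eif2s3y and Uty, summed with 4 others of that chromosome to 192, 171 and 215 counts in the WT EB libraries, to 5, 0 and 0 in the WT ESC libraries, to 0, 0 and 2 in the KD EB libraries and to 0 in the KD ESC libraries. In WT EBs Eif2s3y stood at 1.87% to 1.92% of the level of its X-linked copy Eif2s3x, in CPM, and Ddx3y at 0.302% to 0.327% of Ddx3x. The source of these reads was not tested.

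**Figure D1:**
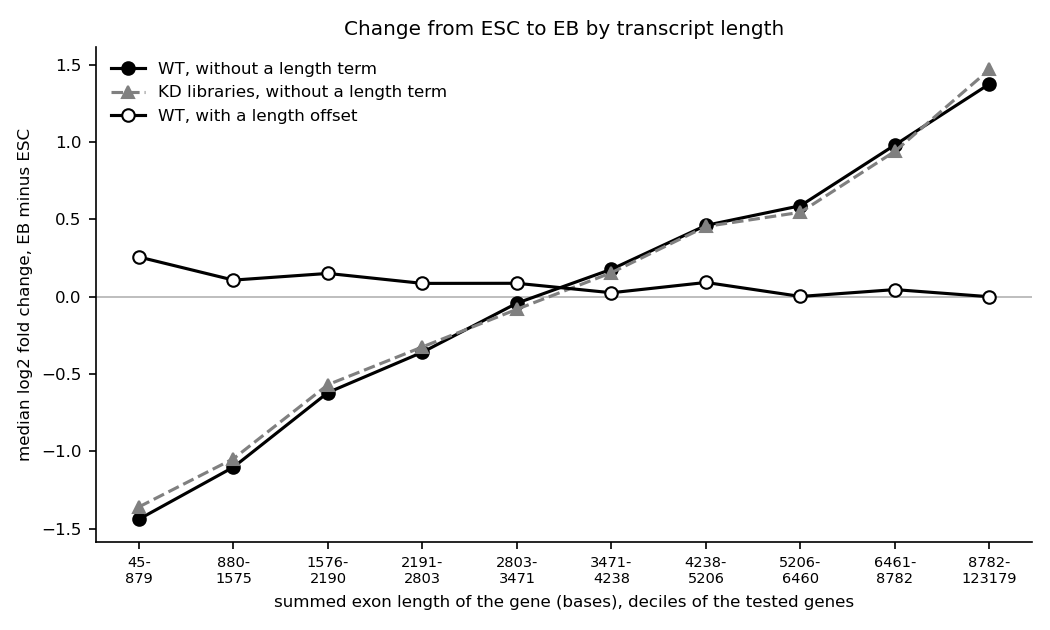
Median log2 fold change (EB minus ESC) by decile of summed exon length, in bases, for the tested genes. Filled circles are WT libraries, triangles KD libraries, and open circles WT libraries after the length trend was taken out; the WT line runs from −1.44 to 1.38 and the open circles stay between 0 and 0.26.

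Most of the measured transcriptome differed between the stages. By edgeR's quasi-likelihood F-test 15133 of 18975 genes (79.8%) passed a Benjamini-Hochberg adjusted p of 0.05. Of all tested genes, 8061 (42.5%) were higher in EBs and 7072 (37.3%) were lower. A change of 2-fold or more was called in 6128 genes upwards (32.3%) and in 5194 downwards (27.4%). The 3 values of a stage lay wholly above or below those of the other stage in 15500 genes (81.7%). Higher genes made up 53.3% of the calls, and 65.2% with scaling by library size alone, which called 52.0% of tested genes higher and 27.8% lower. A length offset called 39.8% of tested genes higher and 37.0% lower. Under it 12082 of the calls held in the same direction, 889 were called in the opposite one and 2162 were not called, while 13723 (90.7%) held in all 6 fits that left out a WT library. Against these backgrounds a list of genes needs more than a majority of called members to stand apart. Lists are therefore given with their counts in both directions and their median, which over all tested genes was 0.17. The lists were chosen with earlier results of these data known, so their counts describe the listed genes and are not a test of them. In a bulk sample, fewer cells of a type and less RNA per cell cannot be told apart.

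The 10 largest rises were ranked by fitted log2 fold change. Candidates were called genes with a gene name and a mean log2 CPM (read count scaled to the library's size) of at least 2. All 10 were genes without a count in any ESC library, where the fitted value depends on the small prior count of the fit. Their rank above genes with ESC counts, such as Igf2 (log2 change 11.62, SE 0.20), depends on it too. Acta2, the smooth muscle actin (GRCm38 chr19:34241090-34255336), was at 117, 118 and 118 CPM in the EB libraries and at 0 in all ESC libraries. Measured against a floor of 3 counts over the 3 ESC libraries, it was at least 3172-fold higher in EBs (edgeR adjusted p = 2.84e-15). Such bounds take counts as independent, but both mates of a pair may have been counted, so bounds here and below may be too high. Unc5c, a netrin receptor, was at 87.0, 85.7 and 79.3 CPM and at least 2258-fold higher (edgeR adjusted p = 5.49e-14). Foxf1, a transcription factor of splanchnic mesoderm, was at 57.0, 61.3 and 57.9 CPM and at least 1579.5-fold higher (edgeR adjusted p = 2.60e-13). The stages thus did not overlap in any of the 3. Bnc1, a zinc finger factor of epithelia, stood at 36.6, 32.5 and 36.1 CPM in EBs, Rbms3, an RNA-binding protein, at 36.4, 34.3 and 31.3 CPM, and Amer3 at 30.4, 35.6 and 32.5 CPM. Cdh11, a mesenchymal cadherin, was at 32.4, 32.4 and 32.4 CPM, and P3h2, a prolyl hydroxylase that modifies collagen, was at 33.6, 29.9 and 30.1 CPM. Aplnr, the receptor of apelin, was at 27.0, 29.4 and 27.3 CPM, and Rfx6, a transcription factor of gut endoderm and pancreas, was at 25.0, 22.7 and 25.9 CPM. For these 7 genes the bound lay between 660.2-fold and 942-fold.

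Among the 10 largest falls, by the same limit on the mean level, 2 genes had no count in EBs, and their rank likewise depends on the prior count. Spic, an ETS factor (GRCm38 chr10:88674772-88685015), was at 15.1, 17.9 and 13.1 CPM in the ESC libraries and had no count in any EB library, which made it at least 599.5-fold lower in EBs (edgeR adjusted p = 7.52e-12). Spint5 was at 11.56, 17.3 and 9.65 CPM and also had no count in EBs, at least 500.3-fold lower (edgeR adjusted p = 2.04e-10). Fam25c fell from 410.2, 757 and 370.4 CPM to 0, 0.431 and 0.145 CPM, a log2 fold change of −11.38 (SE 0.51, edgeR adjusted p = 1.38e-08). The skeletal myosin gene Myh13 fell from 71.5, 90.1 and 65.5 CPM to 0, 0.0539 and 0.0483 CPM, a log2 fold change of −10.95 (SE 0.27, edgeR adjusted p = 6.60e-15). Trpm1, a channel of melanocytes and retinal cells, fell from 152, 168 and 144 CPM to 0.104, 0.162 and 0.0483 CPM, a log2 fold change of −10.50 (SE 0.15, edgeR adjusted p = 3.74e-17). Phf11d, Smtnl1 and Crxos followed, with log2 fold changes of −9.80 (SE 0.38), −9.82 (SE 0.49) and −9.72 (SE 0.22). For Crxos, which lies opposite Crx, reads of the 2 strands cannot be told apart. Vwa3b and Aldh3a1 kept 2 counts each in the EB libraries together. Their ratios of ESC to EB level were 1478 (counting interval 409 to 12209.6) and 1439 (counting interval 398 to 11886), where the intervals, at a level of 95%, cover counting error only. Further genes without a count in EBs were Fkbp6, a factor of meiosis and of piRNA synthesis, at 9.54, 7.39 and 7.26 CPM in ESCs, Ms4a10 at 7.55, 8.16 and 6.86 CPM, and Dgkeos, an antisense transcript of Dgke, at 2.98, 6.49 and 4.71 CPM. In no gene of this paragraph did the stages overlap.

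The promoters of a gene from the largest falls and of a gene from the largest rises are shown. The reason is that the density of CpG, the substrate of DNA methylation, differed among the strongly changed genes. Each line gives the 150 bases directly before the RefSeq start on GRCm38.p6, read 5′ to 3′ on the gene's own strand, with each CpG in capitals. Fam25c lies on the minus strand at chr14:34355394-34355543 and Bnc1 on the minus strand at chr7:81992300-81992449.
Fam25c: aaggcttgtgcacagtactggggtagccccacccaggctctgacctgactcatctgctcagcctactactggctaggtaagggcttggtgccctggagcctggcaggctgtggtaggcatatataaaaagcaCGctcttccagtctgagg
Bnc1: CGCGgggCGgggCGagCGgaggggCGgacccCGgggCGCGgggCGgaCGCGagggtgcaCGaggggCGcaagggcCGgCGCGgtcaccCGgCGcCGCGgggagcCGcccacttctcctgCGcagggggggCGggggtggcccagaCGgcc
These 150 bases hold 1 CpG in Fam25c and 25 in Bnc1. In the windows of 300 bases used below the counts are 2 and 50. Bnc1 thus lies far above the median of 18 of the genes higher by 8-fold or more and does not stand for them. A RefSeq promoter of 300 bases (250 before the start, 50 after) was listed once for 10141 of the 18975 tested genes. Its median CpG count was 22 among genes called higher, 18 among genes called lower and 20 over all tested. Among genes higher by 8-fold or more the median was 18. Among genes lower by 8-fold or more it was 7, and 33.5% held fewer than 5 CpG. That share was 15.7% among genes higher by 8-fold or more and 9.80% over all tested. The letters TCAAGGTCA, the element bound by ESRRB, were searched on both strands. They stood in 0.772% of the 777 promoters of genes lower by 8-fold or more. The share was 0.185% among genes higher by 8-fold or more and 0.237% over all tested. Other searched elements were also more frequent among genes lower by 8-fold or more than over all tested. They included TATA (13.1% against 7.45%), GATA (9.40% against 6.33%) and AP-1 (7.46% against 4.66%). Elements of NRF1, YY1, STAT, E2F, CRE, ETS and the E-box were rarer there. A higher share in this class was thus not particular to the ESRRB element. The ETS letters CCGGAAG stood in 20.6% of promoters of genes called lower, 14.3% of those called higher and 16.8% of all tested. Among strongly changed genes they were rarer, in 7.59% of those lower and 6.11% of those higher by 8-fold or more. These are matches of letters only.

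Genes of the naive state fell together. All 20 genes of the naive list were lower in EBs (37.3% of all tested), 19 of them by 2-fold or more (27.4% of all tested), with a median log2 fold change of −4.81. Zfp42 (Rex1), a zinc finger gene used as a reporter of the naive state, was at 445, 332 and 451 CPM in ESCs and 15.3, 17.4 and 16.3 CPM in EBs, a log2 fold change of −4.65 (SE 0.11, edgeR adjusted p = 7.20e-15). The ESC libraries were all far above the EB libraries, with replicate 2 the lowest of them. Esrrb, a nuclear receptor, fell from 506, 431 and 497 CPM to 5.26, 6.53 and 5.12 CPM, a log2 fold change of −6.41 (SE 0.12, edgeR adjusted p = 8.30e-16). Nanog was at 589, 552 and 533 CPM in ESCs and 46.8, 49.4 and 43.5 CPM in EBs, with a change of −3.58 (SE 0.06, edgeR adjusted p = 2.24e-16). For Klf4 the values were 127, 83.5 and 132 CPM in ESCs and 9.66, 8.12 and 10.1 CPM in EBs, a change of −3.62 (SE 0.15, edgeR adjusted p = 1.61e-11). None of these genes overlapped between stages. The deepest falls of the list were those of Nr0b1, Prdm14 and Tcl1, at −8.91 (SE 0.37), −8.10 (SE 0.16) and −8.05 (SE 0.21). Dppa5a, an RNA-binding protein of pluripotent cells, had 1 of the 5 largest losses in CPM among called genes with a gene name, from 5807, 7580.3 and 4985 CPM to 42.8, 45.4 and 46.5 CPM, a log2 fold change of −7.09 (SE 0.15, edgeR adjusted p = 1.99e-14). Dppa3 (Stella) was low at both stages, at 5.00, 5.13 and 5.94 CPM in ESCs and 0.677, 0.377 and 1.09 CPM in EBs, a change of −2.89 (SE 0.31). Tbx3 changed least, from 274, 249 and 268 to 184, 178 and 184 CPM (log2 change −0.53, SE 0.05, edgeR adjusted p = 6.08e-08), and its log2 fold change was −0.0029 with scaling by library size alone, which ended the call.

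The promoter of Zfp42 is shown because it holds the octamer ATGCAAAT, the element bound by POU5F1 and other POU factors, within the listed window. The line gives 150 bases on the minus strand of GRCm38.p6 at chr8:43307066-43307215, beginning 206 bases before the RefSeq start, and the capitals mark the octamer, read on the opposite strand.
Zfp42: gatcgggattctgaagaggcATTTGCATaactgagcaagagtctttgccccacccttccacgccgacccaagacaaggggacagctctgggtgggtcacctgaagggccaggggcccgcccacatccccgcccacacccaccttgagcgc
The octamer stood in 2.19% of promoters of genes lower by 8-fold or more, in 1.48% of those higher by 8-fold or more and in 1.47% of all tested. As given above, other elements such as TATA and GATA were also more frequent among genes lower by 8-fold or more. The higher share was thus not particular to the octamer.

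**Figure D2:**
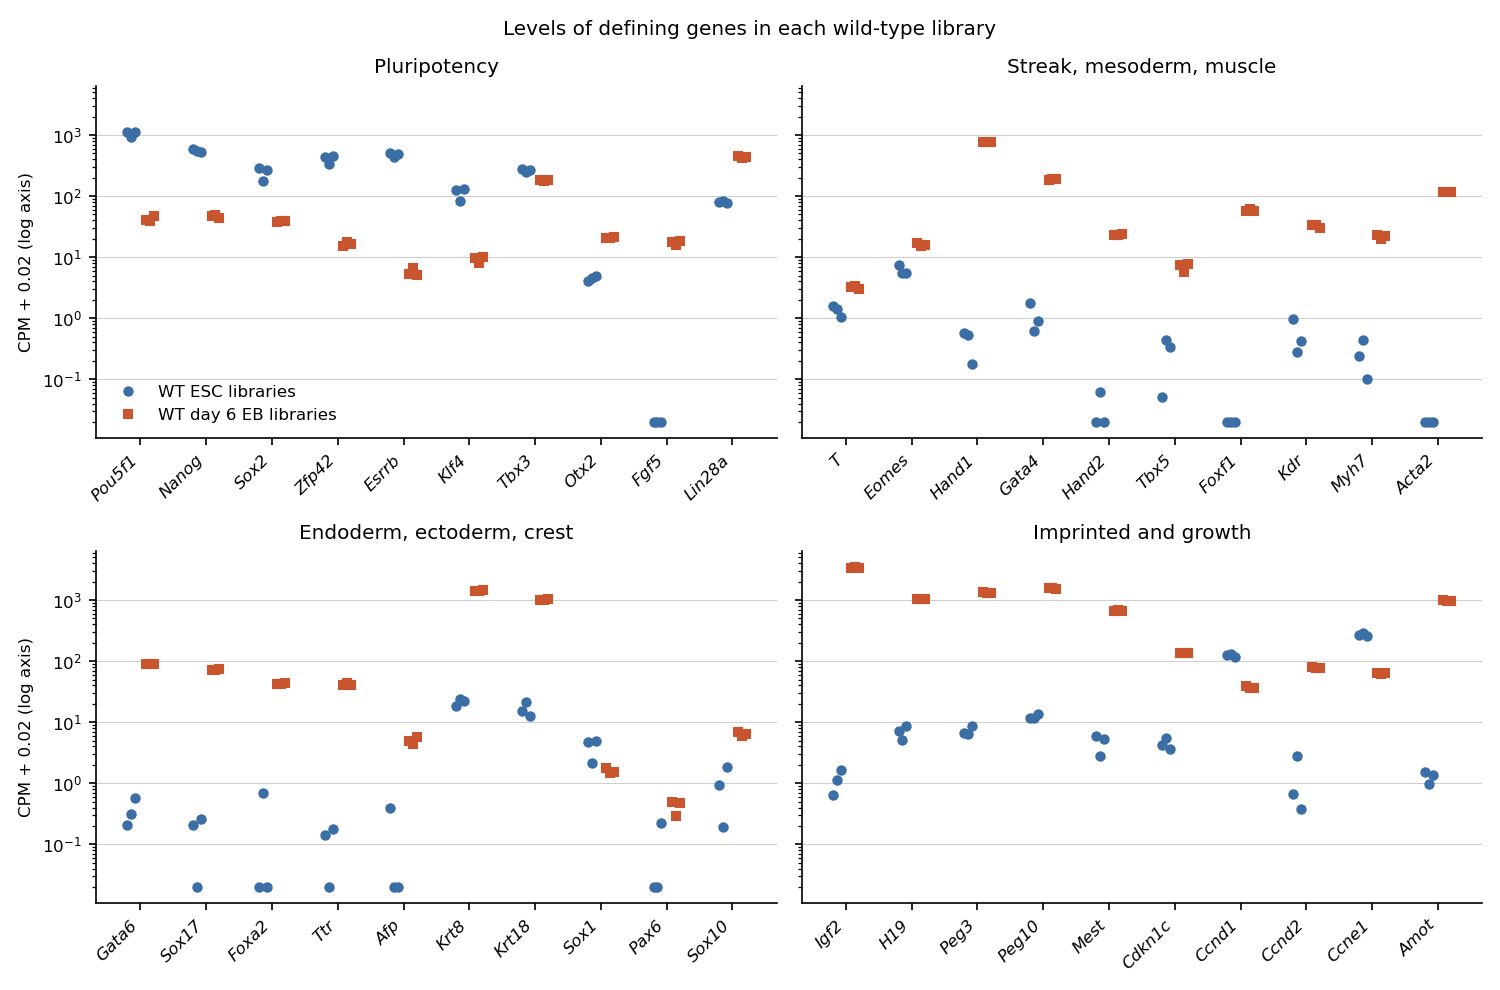
Level of 40 genes in each WT library, as CPM + 0.02 on a log axis, so that a gene without a count is drawn at 0.02. Circles are ESC libraries and squares EB libraries; Pou5f1 fell from about 1103 to 41.2 CPM in replicate 1 while Igf2, Hand1, Krt8 and Amot rose, and Tbx3 and Pax6 show the narrow gaps described in the text.

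The core of the network fell less evenly. Pou5f1 (Oct4) was at 1103, 917 and 1134 CPM in ESCs and 41.2, 39.0 and 46.7 CPM in EBs, a log2 fold change of −4.63 (SE 0.10, edgeR adjusted p = 1.57e-15). Sox2, which neural cells also express, was at 283, 179 and 263 CPM in ESCs and 38.0, 38.4 and 39.7 CPM in EBs, a change of −2.65 (SE 0.13, edgeR adjusted p = 3.46e-10). The 3 ESC values of both genes stood above all EB values. Sall4 fell by 1.58 (SE 0.13) on the same scale, and Tdgf1, the NODAL co-receptor Cripto, changed by −5.96 (SE 0.07). Of 16 core genes, 3 were higher and 13 lower, with a median of −2.82. The 3 that rose were Lin28a, Rif1 and Trim71. Lin28a, which blocks maturation of let-7, rose from 81.3, 83.7 and 76.4 CPM to 448, 429 and 437 CPM, a log2 fold change of 2.44 (SE 0.05, edgeR adjusted p = 1.89e-15). Trim71, a let-7 target, was higher by 0.77 (SE 0.07) but changed by −0.40 with a length offset.

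Formative and primed genes rose in 13 of 17 and fell in 4, with a median of 2.20. Fgf5, a marker of the formative epiblast, had no count in ESCs and was at 17.5, 15.9 and 18.2 CPM in EBs, at least 463-fold higher (edgeR adjusted p = 5.03e-10). Otx2 was at 4.04, 4.61 and 4.82 CPM in ESCs and 20.3, 20.7 and 21.0 CPM in EBs, a change of 2.20 (SE 0.21, edgeR adjusted p = 5.78e-08). Pou3f1 (Oct6) rose from 2.58, 1.79 and 1.99 to 23.4, 24.7 and 24.5 CPM, a log2 fold change of 3.50 (SE 0.21, edgeR adjusted p = 2.04e-10). All 3 were above every ESC value in every EB library. The 4 that fell were Foxd3, Nkx1-2, Etv4 and Etv5. Foxd3 changed by −4.99 (SE 0.20), and Etv4 and Etv5, ETS factors downstream of FGF, by −3.02 (SE 0.11) and −3.39 (SE 0.11).

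Transcripts of the 2-cell-like state, which a small fraction of ESCs enters at a time, were low and fell. Of 15 listed genes 5 passed the filter and all 5 were lower, with a median of −3.36. Zscan4c was at 2.55, 2.26 and 1.99 CPM in ESCs and 0.26, 0.189 and 0.338 CPM in EBs, a change of −3.09 (SE 0.51, edgeR adjusted p = 4.03e-05). The Zscan4 copies are nearly identical, so the split of reads among them is uncertain. Germline and meiosis genes fell in 14 of 19 and rose in 3, with a median of −3.25. Stra8, which licenses meiosis, fell from 21.5, 20.0 and 17.8 CPM to 0, 0.324 and 0.0725 CPM, a log2 fold change of −7.22 (SE 0.42, edgeR adjusted p = 1.56e-10). Dazl, an RNA-binding protein of germ cells, fell from 6.00, 2.91 and 4.15 to 0.521, 0.324 and 0.217 CPM, a log2 fold change of −3.62 (SE 0.41, edgeR adjusted p = 5.91e-07). Nanos3 changed by −5.89 (SE 0.64). The 3 that rose were Prdm1, Kit and Sycp1. Prdm1 (Blimp1), also a gene of visceral endoderm, was at 1.55, 1.45 and 0.798 CPM in ESCs and 10.5, 8.95 and 10.4 CPM in EBs, a change of 2.96 (SE 0.24, edgeR adjusted p = 8.75e-09).

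Primitive streak genes were split, with 9 of 18 higher, 6 lower and a median of 0.87. Of the 3 not called, Mixl1 was at 1.09, 0.769 and 0.798 CPM in ESCs and 1.54, 0.89 and 1.33 CPM in EBs (log2 change 0.49, SE 0.38, edgeR adjusted p = 0.253). It was called higher with scaling by library size alone (1.01, edgeR adjusted p = 0.0254) and with a length offset (1.02, edgeR adjusted p = 0.0232), and each gave 10 higher and 5 lower genes in the list. T (brachyury) stayed low, at 1.59, 1.41 and 1.04 CPM in ESCs and 3.20, 3.40 and 3.02 CPM in EBs, a change of 1.25 (SE 0.25, edgeR adjusted p = 2.69e-04). Eomes was at 7.34, 5.43 and 5.46 CPM in ESCs and 16.8, 15.3 and 15.6 CPM in EBs, a change of 1.38 (SE 0.13, edgeR adjusted p = 9.60e-08). In both genes the EB values lay above all ESC values. Wnt3 rose from 1.34, 1.20 and 1.04 to 28.8, 25.8 and 29.3 CPM, a log2 fold change of 4.54 (SE 0.16), and Evx1 from 0 in all ESC libraries to 12.7, 12.8 and 11.3 CPM, at least 330.0-fold. Genes of the list that fell included Cdx1, from 138, 120.3 and 128 to 0.417, 0.593 and 0.773 CPM, a change of −7.74 (SE 0.17), and the NODAL antagonist Lefty2, of −3.34 (SE 0.13).

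Genes of lateral and cardiac mesoderm rose without exception in the list. All 22 were higher, each by 2-fold or more, with a median of 6.62, or 5.88 with the genes without ESC counts set to their bound. Hand1, a bHLH factor of extraembryonic and cardiac mesoderm (GRCm38 chr11:57828705-57832818), was at 0.56, 0.513 and 0.16 CPM in ESCs and 769, 776 and 765 CPM in EBs, a log2 fold change of 10.82 (SE 0.17, edgeR adjusted p = 1.31e-16). Gata4, shared with primitive endoderm, was at 1.74, 0.598 and 0.877 CPM in ESCs and 182, 189.6 and 190.3 CPM in EBs, a change of 7.37 (SE 0.19, edgeR adjusted p = 1.23e-13). Every EB library lay far above every ESC library in both. Hand2 had 1 count in the ESC libraries together and was at 22.9, 23.4 and 23.7 CPM in EBs, an EB to ESC ratio of 1880.1 (counting interval 337 to 74288). Tbx5, of the first heart field, rose from 0.0311, 0.427 and 0.319 to 7.37, 5.61 and 7.56 CPM, a log2 fold change of 4.81 (SE 0.47, edgeR adjusted p = 9.92e-08). Prrx1, of limb and craniofacial mesenchyme, was at 0 in ESCs and 8.67, 9.98 and 9.01 CPM in EBs, at least 248-fold higher.

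Contractile genes of the heart were split, with 8 of 15 higher, 6 lower and a median of 1.65, which was 0.77 with a length offset. Myh7, the slow cardiac myosin, was at 0.218, 0.427 and 0.0798 CPM in ESCs and 22.9, 19.9 and 22.2 CPM in EBs, a change of 6.49 (SE 0.40, edgeR adjusted p = 3.18e-10). Actc1, the cardiac actin, was at 0 in ESCs and 10.5, 11.8 and 13.2 CPM in EBs, at least 318-fold higher. Tnnt2 rose from 0.497, 1.75 and 0.439 to 5.49, 7.39 and 7.75 CPM, a log2 fold change of 2.97 (SE 0.45). Myl7, the atrial light chain, moved the other way, from 39.0, 63.2 and 34.5 to 6.80, 7.36 and 7.66 CPM, a log2 fold change of −2.64 (SE 0.19, edgeR adjusted p = 2.84e-09), as did Tnni3, by −2.84 (SE 0.14). Paraxial mesoderm had 10 of 18 genes tested, of which 5 were higher and 2 lower, with a median of 1.66. Tcf15, a factor of somites and of the primed epiblast, fell from 122, 156 and 136 to 1.48, 4.58 and 4.59 CPM, a log2 fold change of −5.27 (SE 0.29, edgeR adjusted p = 1.41e-08), and Dll1 rose by 5.62 (SE 0.61). Pax3 was at 0 in ESCs and at 1.38, 1.05 and 1.74 CPM in EBs, at least 37.4-fold higher, and Meox1 was not called, at 1.06, 0.769 and 0.479 CPM in ESCs and 0.495, 0.216 and 0.386 CPM in EBs. Msgn1, Myf5 and Myod1, of presomitic mesoderm and skeletal muscle, were among the 8 genes that did not pass the filter.

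Endothelial genes were split, with 7 of 17 higher and 6 lower, shares near those of all tested genes, and a median that was 0 and became 0.25 with scaling by library size alone. Kdr (VEGF receptor 2) was at 0.933, 0.256 and 0.399 CPM in ESCs and 33.0, 33.3 and 30.1 CPM in EBs, a log2 fold change of 5.82 (SE 0.22, edgeR adjusted p = 1.15e-12). Flt1 (VEGF receptor 1) rose from 1.15, 1.03 and 0.199 to 51.5, 52.6 and 52.6 CPM, a log2 fold change of 6.00 (SE 0.23, edgeR adjusted p = 3.52e-12). Cdh5 (VE-cadherin), the defining endothelial cadherin, was at 0 in ESCs and only 0.365, 0.162 and 0.411 CPM in EBs. Pecam1, which naive ESCs also carry, fell from 98.7, 97.0 and 95.0 to 29.1, 32.7 and 28.8 CPM, a log2 fold change of −1.68 (SE 0.10, edgeR adjusted p = 1.71e-10). For blood, 4 of 14 tested genes were higher and 6 lower, with a median of −0.67. The counts were 1 and 4 with a length offset and 5 and 3 with scaling by library size alone. The 5 globins did not pass the filter. Gata1 was at 1.15, 2.91 and 1.20 CPM in ESCs and 0.755, 1.16 and 0.555 CPM in EBs and was not called (edgeR adjusted p = 0.137). The call of Gata2, at 7.86, 7.18 and 8.29 CPM in ESCs and 9.97, 11.3 and 10.0 CPM in EBs (log2 change 0.42, SE 0.17, edgeR adjusted p = 0.0337), was lost in 5 of the 6 fits that left out a WT library, ESC replicate 1, 2 or 3 or EB replicate 2 or 3, with edgeR adjusted p of up to 0.109.

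Endoderm genes rose in both lists. Of 17 genes of definitive endoderm and gut, 14 were higher and 2 lower, with a median of 4.68, or 4.11 with genes at their bound. Sox17, an SRY-box factor of both endoderms, was at 0.187, 0 and 0.239 CPM in ESCs and 71.2, 71.5 and 73.9 CPM in EBs, a log2 fold change of 8.89 (SE 0.27, edgeR adjusted p = 1.57e-13). Foxa2, a pioneer factor, was at 0, 0.684 and 0 CPM in ESCs, where only replicate 2 had counts, and 42.2, 41.6 and 44.0 CPM in EBs, a change of 7.70 (SE 0.48, edgeR adjusted p = 7.48e-09). The stages were widely separated in both genes. Foxa1 rose to 38.0, 41.0 and 40.04 CPM, a log2 fold change of 9.54 (SE 0.34), and Cer1, a secreted antagonist of NODAL, BMP and WNT, was at 0 in ESCs and 0.781, 1.02 and 1.06 CPM in EBs. The 2 lower genes, Gsc and Trh, changed by −0.98 (SE 0.29) and −0.72 (SE 0.07), with a length offset by 0.22 and 0.38, and with scaling by library size alone neither was called (−0.42 and −0.19).

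Extraembryonic endoderm, the layer that makes the yolk sac epithelium and its basement membrane, had 20 of 26 tested genes higher and 4 lower, with a median of 4.89. Gata6, which drives primitive endoderm, was at 0.187, 0.299 and 0.558 CPM in ESCs and 90.8, 90.9 and 90.4 CPM in EBs, a log2 fold change of 8.06 (SE 0.16, edgeR adjusted p = 7.62e-16). Ttr, the thyroxine carrier of visceral endoderm, was at 0.124, 0 and 0.16 CPM in ESCs and 40.2, 43.1 and 41.3 CPM in EBs, a change of 8.66 (SE 0.22, edgeR adjusted p = 8.56e-15). Apob, the apolipoprotein of lipid-exporting cells, rose from 0.0622, 0.598 and 0 to 119, 105 and 113 CPM, a log2 fold change of 9.11 (SE 0.47, edgeR adjusted p = 1.14e-08). Every EB library lay above every ESC library in these 3 genes. Afp, the fetal albumin of later visceral endoderm, reached 4.90, 4.395 and 5.75 CPM from 0.373, 0 and 0 CPM in ESCs, a change of 5.09 (SE 0.65, edgeR adjusted p = 6.91e-06). The 4 lower genes were Apoe, Apom, Amn and Lama1. Apoe, already high in ESCs, fell from 1803, 2258 and 1972 to 487, 521 and 544 CPM, a log2 fold change of −1.96 (SE 0.08, edgeR adjusted p = 2.70e-12). Lama1, a laminin chain of the endoderm basement membrane, fell from 90.8, 95.6 and 95.4 to 35.2, 31.6 and 35.3 CPM, a log2 fold change of −1.47 (SE 0.07, edgeR adjusted p = 3.10e-11).

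Among trophoblast genes 10 of 16 were tested, 7 higher and 2 lower, with a median of 2.42. Cdx2 was at 3.36, 4.32 and 4.27 CPM in ESCs and 27.7, 25.9 and 27.8 CPM in EBs, a change of 2.78 (SE 0.12, edgeR adjusted p = 5.73e-12). Plac1 was at 0 in ESCs and 4.45, 5.96 and 5.53 CPM in EBs, at least 143-fold higher. Elf5, Tpbpa and the placental prolactins Prl3d1 and Prl2c2, which define trophoblast and placenta, did not pass the filter.

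Neural genes were split. Of 20 tested neuroectoderm genes 10 were higher and 7 lower, with a median of 0.83, and 9 and 9 with a length offset. A fit of the 6 WT libraries alone called 7 higher and 7 lower. Sox1, the earliest definitive neural marker, was at 4.69, 2.09 and 4.90 CPM in ESCs and 1.74, 1.43 and 1.52 CPM in EBs, a log2 fold change of −1.32 (SE 0.36, edgeR adjusted p = 0.00323), and this call was lost with scaling by library size alone (edgeR adjusted p = 0.0617). Pax6 was near the floor, at 0, 0 and 0.199 CPM in ESCs and 0.469, 0.27 and 0.459 CPM in EBs (log2 change 2.58, SE 1.09, edgeR adjusted p = 0.0406), and without any 1 of the WT libraries other than ESC replicate 3 it was not called (edgeR adjusted p from 0.0522 to 0.133). Nes was not called, at 47.9, 54.6 and 51.8 CPM in ESCs and 55.0, 51.5 and 54.4 CPM in EBs (log2 change 0.06, SE 0.07, edgeR adjusted p = 0.437). It was called in opposite directions at 0.60 with scaling by library size alone (edgeR adjusted p = 2.81e-06) and at −0.66 with a length offset (edgeR adjusted p = 1.62e-06). Sox11 rose from 3.08, 2.31 and 2.39 to 156, 153 and 153 CPM, a log2 fold change of 5.87 (SE 0.15, edgeR adjusted p = 1.83e-14), with no overlap. Tubb3, the neuronal tubulin, fell from 53.7, 43.8 and 52.6 to 4.43, 3.99 and 4.88 CPM, a log2 fold change of −3.49 (SE 0.12, edgeR adjusted p = 1.98e-13), and Stmn2 by −1.99 (SE 0.05). Of 14 neural crest genes 10 were higher and 3 lower, with a median of 3.61, or 3.13 with genes at their bound. Msx1, a homeobox gene also induced by BMP, rose from 0.0622, 0 and 0.12 to 142, 137 and 144 CPM, a log2 fold change of 11.06 (SE 0.34, edgeR adjusted p = 3.22e-12), and Snai2 by 6.46 (SE 0.21). Sox10, the defining crest factor, stayed low, at 0.901, 0.171 and 1.79 CPM in ESCs and 6.85, 5.88 and 6.38 CPM in EBs, a change of 2.72 (SE 0.57, edgeR adjusted p = 4.58e-04). Foxd3 and Ngfr were among the lower genes.

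The keratins of simple epithelium rose. Krt8 was at 18.5, 24.3 and 22.6 CPM in ESCs and 1405, 1394 and 1465 CPM in EBs, a log2 fold change of 6.03 (SE 0.09, edgeR adjusted p = 6.35e-17). Its partner keratin Krt18 was at 15.1, 21.1 and 12.5 CPM in ESCs and 1004, 992 and 1024 CPM in EBs, a change of 5.96 (SE 0.16, edgeR adjusted p = 9.45e-13). The 2 keratins pair in filaments of all simple epithelia, extraembryonic ones included, and the stages did not overlap in either. Of 16 tested genes of surface ectoderm and simple epithelium 9 were higher and 4 lower, with a median of 1.24. The counts were 9 and 2 with a length offset and 10 and 1 with scaling by library size alone. Krt5 and Krt14 of stratified epidermis were not called. Esrp1, a splicing factor of epithelia, rose from 1.06, 2.44 and 1.60 to 86.2, 87.3 and 89.0 CPM, a log2 fold change of 5.73 (SE 0.19, edgeR adjusted p = 1.71e-13). Podxl, a sialomucin of epithelial surfaces, had 1 of the 5 largest gains in CPM among called genes with a gene name, from 12.4, 16.9 and 14.6 to 1706, 1638 and 1673 CPM, a log2 fold change of 6.84 (SE 0.09, edgeR adjusted p = 2.20e-17).

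Hox genes, which pattern the trunk along its axis, rose in 32 of 38 tested members and fell in 5 (3 with a length offset), with a median of 4.25, or 3.73 with genes at their bound. In a fit of the 6 WT libraries alone, 27 Hox genes were called higher and 4 lower. Hox levels stayed low, with a summed 145 to 149 CPM in EBs and 35.0 to 36.5 CPM in ESCs. Hoxb1, at the 3′ end of its cluster, was at 0 in ESCs and 5.05, 5.23 and 5.05 CPM in EBs, at least 137-fold higher (edgeR adjusted p = 2.10e-08). Hoxb2 and Hoxb3 were likewise at 0 in ESCs and reached 3.02, 2.75 and 2.99 CPM and 3.25, 3.13 and 2.32 CPM. The 5 lower genes were Hoxb9, Hoxb13, Hoxc11, Hoxc12 and Hoxc13, all from the 5′ side of their clusters. Other genes of that side rose, among them Hoxa10, Hoxa13 and Hoxc9 (3.71, SE 0.46). Hoxb9 changed by −0.81 (SE 0.21). It was at −0.28 with scaling by library size alone and −0.41 with a length offset, and called under neither. Hoxc13 was at 12.3, 11.7 and 10.0 CPM in ESCs and 1.67, 2.103 and 2.03 CPM in EBs, a change of −2.55 (SE 0.19, edgeR adjusted p = 3.71e-09), and Hoxb13 changed by −6.24 (SE 0.59). Hoxc12 was at 0.342, 1.97 and 1.28 CPM in ESCs and at 0 in EBs.

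Imprinted genes, which are read from 1 parental allele and many of which act on fetal growth, took a much larger share of the counts in EBs, 1.15% to 1.178% against 0.0257% to 0.0340%. Of 28 tested members 25 were higher and 3 lower, with a median of 3.44, and 22 and 5 with a length offset. Igf2, a fetal growth factor (GRCm38 chr7:142650766-142666816), had the largest gain in CPM among called genes with a gene name, from 0.622, 1.11 and 1.63 CPM in ESCs to 3418, 3482 and 3399.6 CPM in EBs, a log2 fold change of 11.62 (SE 0.20, edgeR adjusted p = 4.30e-15). H19, a noncoding RNA from the same domain on chromosome 7, was at 7.06, 5.04 and 8.53 CPM in ESCs and 1038, 1033 and 1030.0 CPM in EBs, a change of 7.23 (SE 0.13, edgeR adjusted p = 7.79e-16). Neither gene overlapped between stages. Peg10, a retrotransposon-derived gene of the placenta, rose from 11.8, 11.7 and 13.8 to 1607, 1593 and 1541 CPM, a log2 fold change of 6.99 (SE 0.09, edgeR adjusted p = 1.80e-17). Peg3 was at 6.71, 6.45 and 8.73 CPM in ESCs and 1340.0, 1301 and 1307 CPM in EBs, a change of 7.50 (SE 0.11, edgeR adjusted p = 6.35e-17). Mest rose by 7.14 (SE 0.17), Zim1 by 9.52 (SE 0.22) and Cdkn1c, an inhibitor of cyclin-dependent kinases, by 4.95 (SE 0.13). The 3 lower genes were Plagl1, Slc22a18 and Ascl2, with log2 fold changes of −2.65 (SE 0.35), −2.12 (SE 0.29) and −2.35 (SE 0.26).

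Genes of the extracellular matrix rose. Of 29 tested genes of collagens and fibroblast matrix 26 were higher and 1, Thy1, lower, with a median of 4.11. Col1a1, fibrillar collagen, was at 2.30, 1.28 and 2.43 CPM in ESCs and 347, 359 and 357 CPM in EBs, a log2 fold change of 7.44 (SE 0.15, edgeR adjusted p = 2.00e-15). Postn, periostin of mesenchyme, was at 0 in ESCs and 5.29, 5.61 and 5.68 CPM in EBs, at least 148-fold higher. Fn1, fibronectin, was high at both stages and not called, at 776, 605 and 789 CPM in ESCs and 782, 775 and 803 CPM in EBs (log2 change 0.12, SE 0.08, edgeR adjusted p = 0.168), but its log2 fold change was −1.23 with a length offset and 0.64 with scaling by library size alone. Among laminins and basement membrane genes 16 of 19 were higher and 1 lower, with a median of 1.61, which became 12, 5 and 0.76 with a length offset. Col4a1, collagen IV, was at 10.2, 6.45 and 7.30 CPM in ESCs and 452, 456 and 479.8 CPM in EBs, a change of 5.84 (SE 0.12, edgeR adjusted p = 4.61e-15), and Lamb1 at 18.6, 16.1 and 16.0 CPM in ESCs and 454, 443 and 436 CPM in EBs, a change of 4.71 (SE 0.11, edgeR adjusted p = 5.39e-15). The EB values of both were all above those of ESCs.

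Both cadherins of the classical switch rose. Cdh1 (E-cadherin) was at 161, 143 and 154 CPM in ESCs and 279, 264 and 268 CPM in EBs, a log2 fold change of 0.82 (SE 0.06, edgeR adjusted p = 1.34e-09). Cdh2 (N-cadherin) was at 3.02, 2.91 and 1.83 CPM in ESCs and 78.1, 64.8 and 66.7 CPM in EBs, a change of 4.74 (SE 0.14, edgeR adjusted p = 6.79e-14). Zeb2, a repressor of Cdh1, rose from 0.0622, 0.128 and 0.239 to 21.2, 19.8 and 19.6 CPM, a log2 fold change of 7.16 (SE 0.28, edgeR adjusted p = 1.14e-12). Of 21 genes of the cadherin switch and of the transition from epithelium to mesenchyme, 19 were higher and 0 lower, with a median of 3.50. The list holds epithelial genes (Cdh1, Epcam, Ocln, Cldn7) and mesenchymal ones (Cdh2, Vim, Twist1), and genes of both kinds were higher. Genes of the Hippo-YAP list were higher in 16 of 18 and lower in 0, with a median of 2.70. Amot, an angiomotin that binds YAP, was at 1.52, 0.94 and 1.36 CPM in ESCs and 1004, 968 and 968 CPM in EBs, a change of 9.56 (SE 0.14, edgeR adjusted p = 3.33e-17). Ccn1 (Cyr61), a direct YAP target, rose from 3.73, 5.04 and 4.35 to 184, 183 and 185 CPM, a log2 fold change of 5.40 (SE 0.11, edgeR adjusted p = 1.52e-15), and Ccn2 (Ctgf) by 3.41 (SE 0.20).

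Of 20 LIF and STAT3 genes 9 were higher and 11 lower, with a median of −0.99. Socs3, the feedback inhibitor of STAT3, was at 126, 106 and 132 CPM in ESCs and 20.8, 18.8 and 22.5 CPM in EBs, a log2 fold change of −2.55 (SE 0.11, edgeR adjusted p = 4.09e-12). Bcl3 fell by 5.29 (SE 0.12) and Gbx2 by 5.13 (SE 0.25), while the receptor chains Lifr and Il6st rose by 1.33 (SE 0.12) and 1.51 (SE 0.06), which became 0.08 (not called) and 0.19 with a length offset. Stat3 itself changed by −0.61 (SE 0.08), and by −0.09 with scaling by library size alone. ERK targets were higher in 14 of 18 and lower in 4, with a median of 1.79. Egr1, an immediate target of ERK, was at 1.12, 1.62 and 0.558 CPM in ESCs and 57.8, 57.5 and 56.3 CPM in EBs, a change of 5.70 (SE 0.20, edgeR adjusted p = 4.08e-13). Dusp6, a phosphatase that limits ERK, was at 8.02, 4.70 and 5.06 CPM in ESCs and 28.2, 22.4 and 26.6 CPM in EBs, a change of 2.1 (SE 0.17, edgeR adjusted p = 1.03e-08), and Dusp4 rose by 4.70 (SE 0.36). The 4 lower ERK targets were Etv4, Etv5, Ier3 and Ccnd1.

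WNT targets were higher in 13 of 19 and lower in 6, with a median of 1.35. Axin2, which limits beta-catenin, was at 10.6, 7.69 and 11.9 CPM in ESCs and 40.3, 35.6 and 39.4 CPM in EBs, a log2 fold change of 1.93 (SE 0.13, edgeR adjusted p = 1.47e-09). Lef1 rose from 1.31, 0.897 and 0.718 to 29.4, 27.8 and 27.8 CPM, a log2 fold change of 4.83 (SE 0.20, edgeR adjusted p = 2.89e-12), and the antagonist Dkk1 by 6.17 (SE 0.27). Another antagonist, Notum, fell by 2.75 (SE 0.14), and Sp5 by 0.73 (SE 0.16), which was −0.20 with scaling by library size alone and −0.081 with a length offset, and called under neither. In the list of TGF-beta, NODAL and BMP genes, whose median was 3.20, 17 of 23 were higher and 4 lower (Id4, Lefty1, Lefty2 and Nodal). Id1 and Id3, targets of BMP, were at 22.3, 27.9 and 23.5 and 26.0, 30.9 and 21.2 CPM in ESCs and at 263, 269.9 and 276 and 234, 242 and 243 CPM in EBs. Their changes were 3.46 (SE 0.09, edgeR adjusted p = 9.53e-15) and 3.20 (SE 0.10, edgeR adjusted p = 1.80e-13). Bmp5 had 2 counts in the ESC libraries together and was at 24.4, 25.0 and 25.9 CPM in EBs, a ratio of 1012 (counting interval 279.9 to 8362). Nodal fell from 97.0, 122 and 92.6 to 11.5, 11.8 and 12.6 CPM, a log2 fold change of −3.12 (SE 0.10, edgeR adjusted p = 1.35e-13), and its antagonist Lefty1 fell from 9.64, 10.1 and 13.6 to 2.14, 2.29 and 1.71 CPM, a log2 fold change of −2.44 (SE 0.19, edgeR adjusted p = 6.12e-09).

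Enzymes of DNA methylation changed in opposite directions. Dnmt3b, a de novo methyltransferase, was at 48.5, 40.9 and 46.9 CPM in ESCs and 381, 389.9 and 388 CPM in EBs, a log2 fold change of 3.09 (SE 0.06, edgeR adjusted p = 1.47e-15). Dnmt3l, its cofactor without catalytic activity, was at 274, 301 and 273 CPM in ESCs and 21.6, 20.8 and 22.9 CPM in EBs, a change of −3.70 (SE 0.07, edgeR adjusted p = 2.38e-16). Tet3 rose from 4.79, 1.495 and 3.71 to 57.6, 50.9 and 57.9 CPM, a log2 fold change of 4.02 (SE 0.24, edgeR adjusted p = 2.01e-09). Tet1 was at 74.4, 71.5 and 73.8 CPM in ESCs and 50.3, 54.1 and 52.0 CPM in EBs, lower by −0.49 (SE 0.07), but at 0.04 and not called with scaling by library size alone. Zfp57, which protects methylation at imprinted loci, fell from 709, 774 and 683 to 51.6, 52.4 and 55.6 CPM, a log2 fold change of −3.76 (SE 0.06, edgeR adjusted p = 1.31e-16). Of 18 listed genes 7 were higher and 9 lower, and the median of −0.38 became 0.16 with scaling by library size alone.

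In 3 lists of chromatin complexes, whose median lengths of 5039 to 6779 bases exceed the 3471 bases of all tested genes, the balance turned with the length offset. Polycomb genes were 17 of 31 higher and 10 lower, with a median of 0.36, 12 and 15 with a length offset, and 20 and 6 with scaling by library size alone. Ezh2, the catalytic subunit of PRC2, was at 88.4, 77.0 and 89.7 CPM in ESCs and 111, 107 and 111 CPM in EBs, higher by 0.36 (SE 0.07, edgeR adjusted p = 1.28e-04), but changed by −0.41 with a length offset. Members whose direction held without and with the length offset included Epop, Cbx7, Cbx2 and Rbbp7. Epop fell from 1341, 1689 and 1372 to 76.1, 75.4 and 79.3 CPM (log2 change −4.25, SE 0.09, edgeR adjusted p = 9.51e-16). Cbx7 fell from 125, 107 and 130.0 to 74.1, 72.7 and 71.2 CPM (−0.74, SE 0.07). Cbx2 rose from 36.4, 41.2 and 38.0 to 105, 103 and 108 CPM (1.45, SE 0.07), and Rbbp7 by 2.18 (SE 0.05). Cbx7 was at −0.21 and not called with scaling by library size alone (edgeR adjusted p = 0.0623). SWI/SNF subunits were 16 of 26 higher and 6 lower, with a median of 0.60, 10 and 12 with a length offset, and 20 and 4 with scaling by library size alone. Smarca2 (BRM), the ATPase of differentiated cells, rose from 0.715, 0 and 0.638 to 34.7, 35.3 and 34.8 CPM, a log2 fold change of 6.18 (SE 0.53, edgeR adjusted p = 6.88e-07), and Dpf3, a cardiac and muscle subunit, by 4.21 (SE 0.22). The ATPase Smarca4 (BRG1) was higher by 0.38 (SE 0.06) and changed by −0.35 with a length offset. In the MOZ and MORF complexes 4 of 9 genes were higher and 3 lower, with a median of 0.49, 2 and 5 with a length offset, and 7 and 2 with scaling by library size alone. Kat6a (MOZ) was at 22.0, 21.7 and 20.1 CPM in ESCs and 81.7, 82.8 and 80.0 CPM in EBs, a change of 1.94 (SE 0.07, edgeR adjusted p = 3.14e-13). Kat6b (MORF), host gene of the circular RNA of the series (GRCm38 chr14:21481434-21672478), was at 89.3, 66.1 and 80.5 CPM in ESCs and 30.8, 30.1 and 29.1 CPM in EBs, a change of −1.39 (SE 0.09, edgeR adjusted p = 5.70e-10). The stages did not overlap in either of these paralogs.

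**Figure D3:**
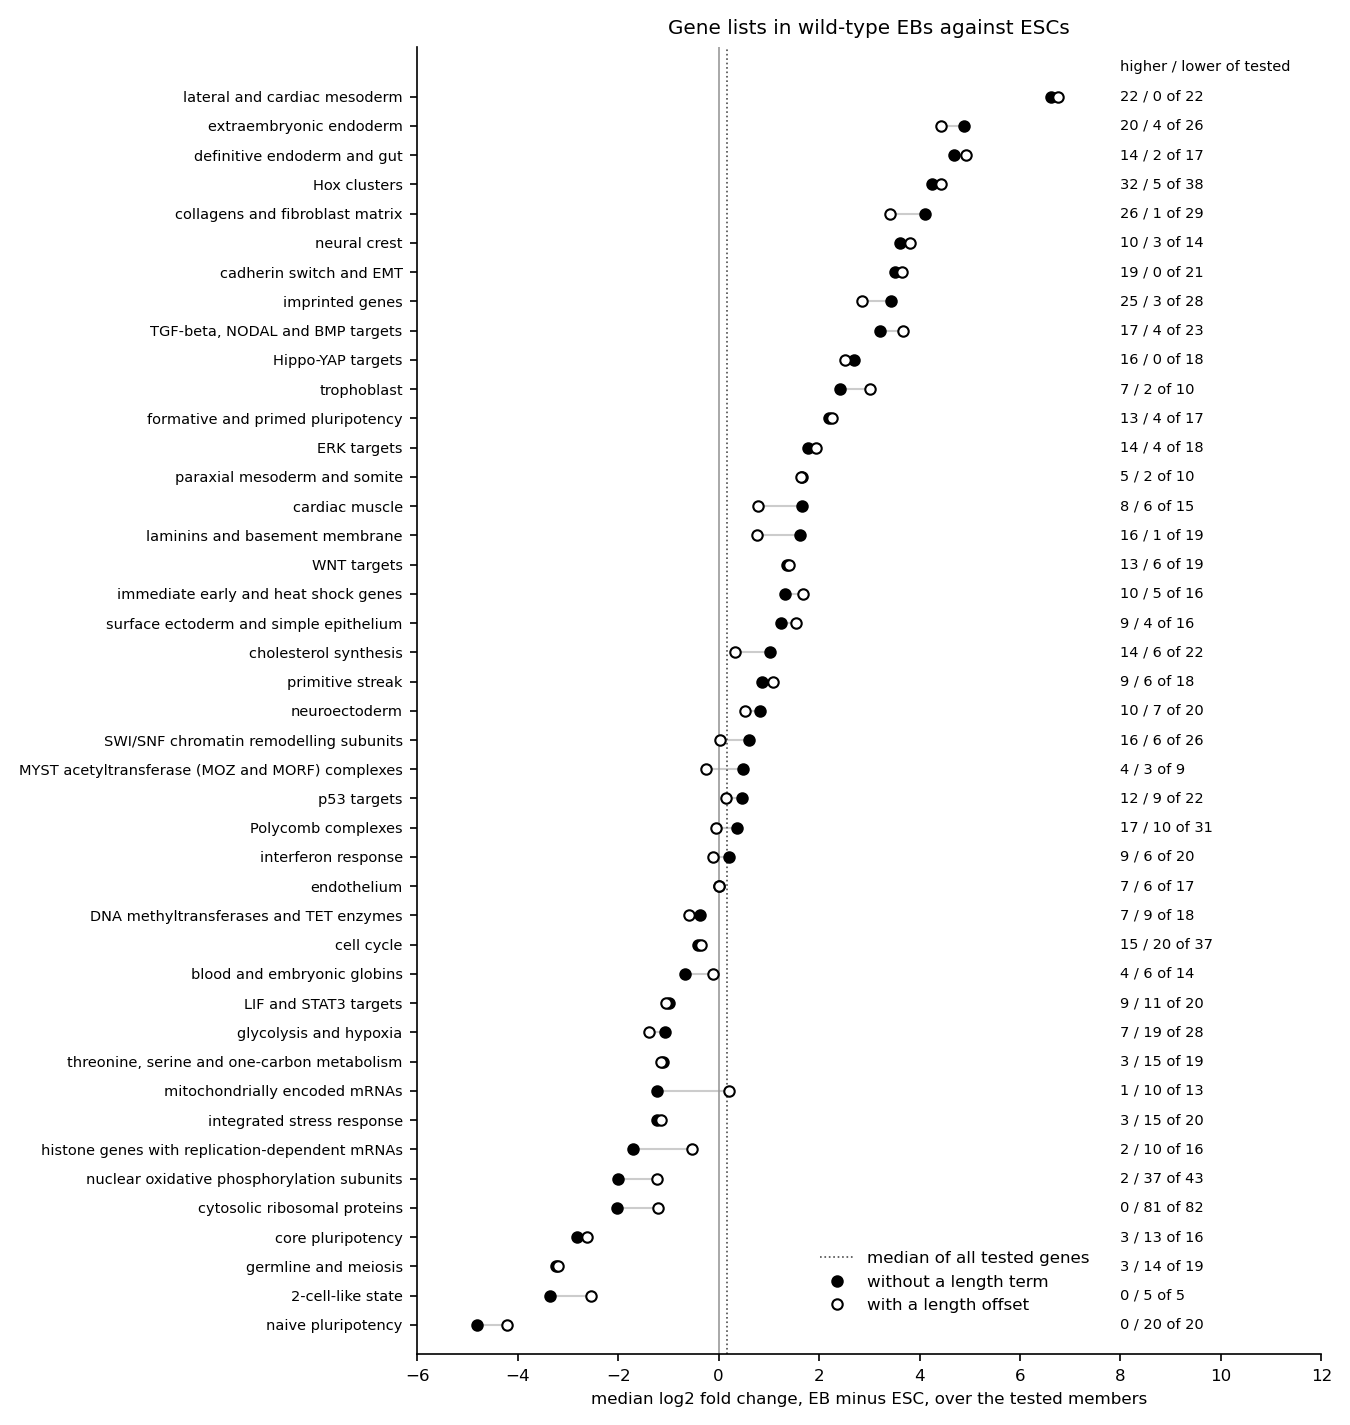
Median log2 fold change (EB minus ESC) of 43 gene lists over their tested members, filled without and open with a length offset, with counts of called members at the right. Lateral mesoderm (6.62) and naive pluripotency (−4.81) lie at the ends, and mitochondrially encoded mRNAs, interferon response, Polycomb and MYST complexes cross 0 with the offset.

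Ribosomal protein mRNAs took a smaller share of the counts in EBs, from 17.1% to 22.0% in ESC libraries to 6.38% to 6.68% in EB libraries. Of 82 genes 81 were lower and 0 higher, with a median of −2.03, which was −1.20 with a length offset (2 higher, 78 lower) and −1.48 with scaling by library size alone. Rps6 was at 3171, 3484 and 2996 CPM in ESCs and 1342, 1305 and 1336 CPM in EBs, a log2 fold change of −1.28 (SE 0.06, edgeR adjusted p = 5.73e-12). Rplp1 was at 8692, 15332 and 8521 CPM in ESCs and 973, 1044 and 1066 CPM in EBs, a change of −3.40 (SE 0.20, edgeR adjusted p = 1.41e-08), and ESC replicate 2 was far above the other ESC libraries. Ribosomal protein genes have many processed copies, so the split of reads among them is uncertain. Rpl39l, a paralog of Rpl39 used in germ cells and ESCs, fell from 200.3, 243 and 191 to 0.833, 0.917 and 0.966 CPM, a log2 fold change of −7.86 (SE 0.12, edgeR adjusted p = 6.75e-17). Eef1a1, the elongation factor whose mRNA carries the same 5′ signal, moved the other way, from 7764, 5602 and 7567 to 10204, 10061 and 10032 CPM, a log2 fold change of 0.53 (SE 0.09, edgeR adjusted p = 5.61e-05).

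**Figure D4:**
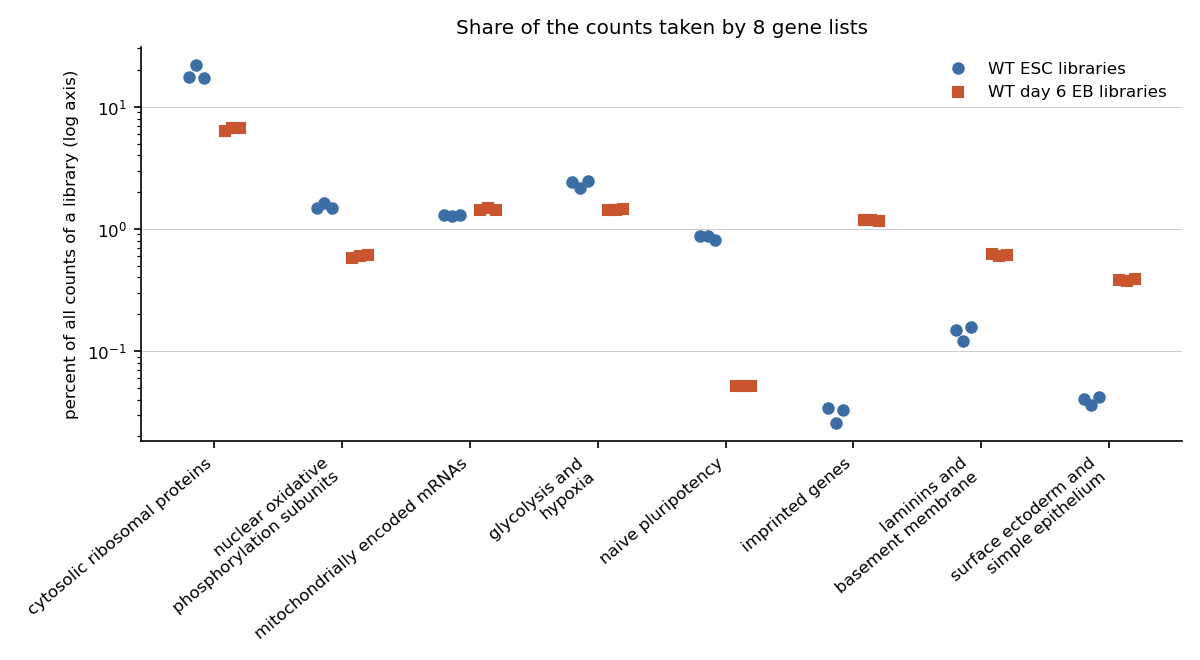
Percent of all counts of a library taken by 8 gene lists, on a log axis. Circles are the 3 ESC libraries and squares the 3 EB libraries; ribosomal proteins fall from 17.1% or more to 6.68% or less, and imprinted genes rise from 0.0340% or less to 1.15% or more.

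Nuclear subunits of oxidative phosphorylation fell in 37 of 43 and rose in 2, with a median of −2.0, or −1.22 with a length offset. Atp5a1, of the ATP synthase, was at 1631, 1649 and 1628 CPM in ESCs and 781, 792 and 827 CPM in EBs, a log2 fold change of −1.03 (SE 0.05, edgeR adjusted p = 7.19e-12). Cox7a1, a subunit of mature muscle, fell from 65.7, 114 and 63.9 to 1.15, 1.35 and 1.57 CPM, a log2 fold change of −5.89 (SE 0.23, edgeR adjusted p = 7.03e-12). Ndufs1 and Uqcrc2 were the 2 higher genes, at 0.40 (SE 0.10) and 0.57 (SE 0.15), and Ndufs1 was at −0.61 with a length offset. Mitochondrially encoded mRNAs took 1.27% to 1.30% of the counts in ESCs and 1.42% to 1.48% in EBs. By gene, 10 of 13 were lower and 1 higher, with a median of −1.22, but 3 were lower and 5 higher with a length offset, with a median of 0.21. The 1 higher gene was mt-Co1, at 4697, 2760.0 and 4869 CPM in ESCs and 7450.1, 7643 and 7403 CPM in EBs, a change of 0.87 (SE 0.16, edgeR adjusted p = 2.60e-04). For mt-Cytb the values were 2188, 2489 and 2060.5 and 955, 982 and 957 CPM, a change of −1.22 (SE 0.06, edgeR adjusted p = 4.55e-11), which was 0.04 with a length offset. Reads of mt-Nd6, which lies on the other strand from its neighbours, cannot be assigned by strand.

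Glycolytic and hypoxia genes fell in 19 of 28 and rose in 7, with a median of −1.07. Aldoa, an aldolase with more than 1 gene identifier of which the one with most counts was used, fell from 6182, 7123 and 6072 CPM to 844, 886 and 889 CPM, a log2 fold change of −2.89 (SE 0.07, edgeR adjusted p = 4.30e-15). Ldha was at 2619.8, 2313 and 2667 CPM in ESCs and 1101, 1086 and 1129 CPM in EBs, a change of −1.20 (SE 0.06, edgeR adjusted p = 1.39e-11). Hk2 was at 275, 206 and 268 CPM in ESCs and 107, 108 and 113 CPM in EBs, a change of −1.19 (SE 0.08, edgeR adjusted p = 1.51e-09). The glucose transporter Slc2a1 moved against them, from 409, 369 and 411 to 1524, 1504 and 1515 CPM, a log2 fold change of 1.93 (SE 0.06, edgeR adjusted p = 4.90e-14). Threonine, serine and one-carbon genes fell in 15 of 19 and rose in 3, with a median of −1.10. Tdh, threonine dehydrogenase, on which mouse ESCs depend, was at 692, 801 and 678 CPM in ESCs and 2.92, 3.10 and 2.17 CPM in EBs, a change of −8.05 (SE 0.11, edgeR adjusted p = 2.72e-17). Gcat, the next enzyme of that path, fell from 254, 306 and 240.4 to 22.9, 21.8 and 22.4 CPM, a log2 fold change of −3.58 (SE 0.08, edgeR adjusted p = 4.30e-15), while Gldc, of the glycine cleavage system, rose from 62.7, 65.2 and 80.2 to 112, 123 and 118 CPM, a log2 fold change of 0.77 (SE 0.08, edgeR adjusted p = 2.12e-07). Phgdh, the first enzyme of serine synthesis, changed by −0.30 (SE 0.05), by 0.23 with scaling by library size alone and by 0.14 with a length offset. Cholesterol synthesis genes rose in 14 of 22 and fell in 6, with a median of 1.02, and 11 and 8 were called with a length offset. Idi1, an isomerase of the pathway, rose by 2.99 (SE 0.14) on the log2 scale, while Mvk, mevalonate kinase, fell by 1.67 (SE 0.11).

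The integrated stress response fell in 15 of 20 genes and rose in 3, with a median of −1.23. Atf4, its transcription factor, which is regulated chiefly in translation, was at 295, 272 and 307 CPM in ESCs and 127, 125 and 120.3 CPM in EBs, a log2 fold change of −1.23 (SE 0.06, edgeR adjusted p = 3.22e-11). Asns, asparagine synthetase and a direct ATF4 target, was at 986, 999 and 948 CPM in ESCs and 99.5, 94.6 and 96.4 CPM in EBs, a change of −3.34 (SE 0.06, edgeR adjusted p = 1.44e-16). Nupr1, a stress cofactor, fell from 58.3, 77.6 and 65.6 to 0.365, 0.351 and 0.725 CPM, a log2 fold change of −7.10 (SE 0.23, edgeR adjusted p = 3.26e-13). Chac1, which degrades glutathione, fell from 24.2, 27.7 and 21.7 to 2.14, 2.26 and 1.09 CPM, a log2 fold change of −3.75 (SE 0.22, edgeR adjusted p = 1.79e-10). The log2 fold changes of Ddit3 (CHOP) and Trib3 were −3.19 (SE 0.09) and −2.87 (SE 0.15). The stages did not overlap in any of these. The 3 higher genes were Vldlr (2.79, SE 0.11), Slc7a11 (1.34, SE 0.16, −0.13 with a length offset) and Aldh18a1 (0.52, SE 0.07). The promoters of Nupr1 and Chac1 are shown because each holds the letters TGATGCAA, bound by ATF4 with a C/EBP partner. Each line gives 150 bases of GRCm38.p6. That of Nupr1 lies on the minus strand at chr7:126625471-126625620, directly before the RefSeq start, that of Chac1 on the plus strand at chr2:119351029-119351178, beginning 213 bases before it, and the capitals mark the element, read on the opposite strand.
Nupr1: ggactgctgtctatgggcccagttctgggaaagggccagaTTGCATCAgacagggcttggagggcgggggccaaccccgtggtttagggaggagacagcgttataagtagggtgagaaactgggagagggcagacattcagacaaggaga
Chac1: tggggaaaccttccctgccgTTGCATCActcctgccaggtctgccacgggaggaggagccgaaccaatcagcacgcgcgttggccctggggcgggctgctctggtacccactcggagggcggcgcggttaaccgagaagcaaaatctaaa
The element stood in 0.572% of all tested promoters, 0.756% of those of genes called lower and 0.340% of those of genes called higher. Its share among genes not called, 0.739%, was close to that of genes called lower.

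Cell cycle genes were 15 of 37 higher and 20 lower, with a median of −0.41, and 18 and 14 with a median of 0.12 with scaling by library size alone. Ccne1, cyclin E, which ESCs express through most of the cycle, was at 264, 293 and 263 CPM in ESCs and 63.5, 61.9 and 63.8 CPM in EBs, a log2 fold change of −2.12 (SE 0.06, edgeR adjusted p = 4.22e-14). Of the D cyclins, Ccnd1 fell from 125, 130.5 and 115 to 39.3, 35.8 and 36.7 CPM, a log2 fold change of −1.73 (SE 0.07, edgeR adjusted p = 2.03e-12), and Ccnd2 rose from 0.653, 2.78 and 0.359 to 80.0, 77.8 and 76.4 CPM, a log2 fold change of 6.02 (SE 0.41, edgeR adjusted p = 4.42e-08). The inhibitor Cdkn1b (p27) rose by 2.45 (SE 0.13) and Cdkn2a fell by 3.29 (SE 0.20). Histone genes with replication-dependent mRNAs, poorly retained by poly-T selection, had 2 higher and 10 lower of 16, with a median of −1.70, and 3 and 6 with a length offset. Of p53 targets 12 of 22 were higher and 9 lower, with a median of 0.46, and 9 and 5 with a length offset. Mdm2 rose from 91.4, 71.2 and 86.9 to 167, 161 and 161 CPM, a log2 fold change of 0.97 (SE 0.08, edgeR adjusted p = 8.99e-09), Bax fell by 2.87 (SE 0.13), and Cdkn1a (p21) changed by −0.50 (SE 0.06), by 0.04 with scaling by library size alone and by 0.08 with a length offset.

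Interferon response genes were 9 of 20 higher and 6 lower, with a median of 0.20, 7 and 8 with a length offset, and 12 and 6 with scaling by library size alone. Bst2 (tetherin) rose from 24.6, 37.6 and 26.6 to 82.8, 79.7 and 82.7 CPM, a log2 fold change of 1.47 (SE 0.13, edgeR adjusted p = 5.15e-08), and Oas1a fell from 50.5, 56.4 and 51.1 to 1.51, 2.02 and 1.76 CPM, a log2 fold change of −4.90 (SE 0.13, edgeR adjusted p = 2.21e-14). Isg15 was near 0 at both stages, at 0.0622, 0 and 0.239 CPM in ESCs and 0.599, 0.377 and 0.0483 CPM in EBs, and not called (edgeR adjusted p = 0.233), but with a length offset it was called higher by 3.21 (edgeR adjusted p = 0.0349). Ifitm3, an antiviral membrane protein also found in germ cells, fell by 3.67 (SE 0.07). Among immediate early and heat shock genes 10 of 16 were higher and 5 lower, with a median of 1.32. Fos was at 2.55, 2.48 and 3.07 CPM in ESCs and 30.5, 28.4 and 26.7 CPM in EBs, a change of 3.40 (SE 0.18, edgeR adjusted p = 5.71e-11). Hspb1, a small heat shock protein, fell from 1652, 1843 and 1812 to 66.4, 79.7 and 77.6 CPM, a log2 fold change of −4.57 (SE 0.08, edgeR adjusted p = 3.36e-16).

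The culture was also checked against markers of other cell types. Of 14 markers of skeletal muscle, liver, lung, brain, lymphocytes, adipocytes and similar tissues, 5 passed the filter. Acta1, the skeletal actin also expressed in the early heart, rose from 1.24, 0.427 and 0.399 to 23.0, 24.6 and 27.3 CPM, a log2 fold change of 5.10 (SE 0.29, edgeR adjusted p = 1.31e-10). The other 4 were lower in EBs, Ckm, Gfap, Syn1 and Cd3e, and the highest of them, the neuronal Syn1, was at 13.0, 13.6 and 14.2 CPM in ESCs and 4.27, 4.56 and 5.26 CPM in EBs. The summed level of the 5 that passed the filter ran from 15.9 to 17.3 CPM in ESCs and from 27.7 to 33.0 CPM in EBs. Alb, Sftpc and Adipoq did not pass the filter.

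A smaller set of genes switched between near silence and expression. With at least 1 CPM in all 3 EB libraries and at most 0.1 CPM in all 3 ESC libraries, 248 genes (1.31% of those tested) appeared, and with the stages exchanged 172 (0.906%) disappeared. At limits of 0.5 and 0.2 CPM these were 596 and 528. Genes that appeared by the stricter limits included Acta2, Foxf1, Bmp5, Bmper, Fgf5, Evx1, Actc1 and Hand2, and those that disappeared included Myh13, Smtnl1, Vwa3b, Aldh3a1, Spic, Spint5, Fkbp6 and Oas2. The Y-linked Ddx3y and Eif2s3y also met the limits for genes that appeared. Neither had a count in any KD EB library, and the source of their reads in WT EBs was not tested. Bmper, an extracellular modulator of BMP, was at 18.9, 17.3 and 16.1 CPM in EBs and at least 468-fold higher. Oas2 was at 3.98, 4.44 and 3.87 CPM in ESCs and 0.0521, 0.0539 and 0.0242 CPM in EBs, a change of −6.45 (SE 0.41, edgeR adjusted p = 5.32e-10). 

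The same stage contrast was fitted in the KD cells. It called 79.8% of the tested genes there as well. Of the 15133 WT calls, 13261 (87.6%) were also called there in the same direction and 233 in the opposite one. The change itself differed between WT and KD cells in 4370 genes (23.0% of those tested), larger in WT on the signed scale in 1940 and smaller in 2430.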

How the data were processed

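Poly-T selected mRNA of 12 libraries was sequenced as paired reads, in 4 groups of 3, and the 6 WT libraries are compared here. The authors deposited raw counts per gene, 1 table for each stage. Per the file headers these are featureCounts output on Ensembl release 90 of GRCm38, for properly paired and non-chimeric fragments (-p -B -C) with no strand option and no option to count pairs once. The submitters' processing notes name HISAT2 2.1.0, featureCounts 2.0.3, DESeq2 1.18.1 and mm10. The handling of multiply aligned reads is not given in the sources used here.

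The tables were joined by gene identifier. Genes were filtered with filterByExpr (minimum count 10, minimum total 15), scaled by TMM and tested with the quasi-likelihood F-test of edgeR 4.0.16 (R 4.3.3, limma 3.58.1) in 1 fit of all 4 groups, with Benjamini-Hochberg adjustment over all tested genes and a threshold of 0.05. CPM were computed with edgeR on the TMM-scaled library size. The SE of a log2 fold change was derived from its F statistic. The fit was tested on simulated data. The members and the 44 gene lists were chosen with earlier results of these data known. Named genes are the 10 largest rises and falls with a mean log2 CPM of at least 2, the 5 largest gains and losses in CPM, defining genes of each list whatever their result, up to 3 members per list in each direction with at least 1 CPM, and up to 5 genes without a count in 1 stage. Gene models were left out of the first 2 sets and the last. Alternatives were a fit of the 6 WT libraries, scaling by library size alone, DESeq2 1.42.0, no filter, 1 CPM in 3 libraries, leaving out each library, a replicate block, glmTreat at a log2 fold change of 1 and other limits for switched genes. The length offset (a trend of log2 CPM on log2 exon length per library) was added after the data were seen.

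Depth was 29.0 to 37.8 M counts per library, so a floor of 3 counts over a stage corresponds to 0.0372 CPM in ESCs and 0.0257 CPM in EBs at a level of 95%. Intervals and floors cover counting error only, and they take counts as independent. Both mates of a pair may have been counted. Among counts of 1 to 10, 61.7% (EB replicate 3) to 68.7% (ESC replicate 1) were even in the WT libraries. Intervals may therefore be too narrow, and bounds set by the floor too high. Replicate numbers are shared by the stages in the labels. The deviations of same-numbered ESC and EB libraries correlated at 0.09, 0.02 and 0.03, so the numbers were not taken to pair them. Promoter sequences are those of RefSeq on GRCm38.p6. Some genes are not reported here.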

Additional observations from a re-analysis of the deposited data

Results flagged for a closer look

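The change from ESC to EB differed between WT and KD cells, by edgeR's test of the difference, in 4370 of 18975 genes. Among the 327 genes chosen for naming the difference was called in 158, with 68 higher and 90 lower in WT, and for 9 of the 327 the changes of WT and KD cells were called in opposite directions. Of the 20 genes of largest change in WT cells 7 differed, and they were looked at gene by gene.

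Amer3 had a fitted difference of 5.64 on the log2 scale between WT and KD cells (SE 1.87, edgeR adjusted p = 0.0441). It had no count in WT ESCs, so the size of this difference depends on the prior count. It stood at 30.4, 35.6 and 32.5 CPM in WT EBs and at 4.87, 4.68 and 5.87 CPM in KD EBs. The other 6 fell further in WT cells. Spic differed by −6.88 (SE 0.78, edgeR adjusted p = 3.97e-05), with no count in WT EBs and 0.431, 0.344 and 0.373 CPM in KD EBs, so the fitted difference depends on the prior count. Myh13 differed by −4.18 (SE 0.52), Trpm1 by −2.61 (SE 0.30), Vwa3b by −4.66 (SE 0.62), Aldh3a1 by −3.89 (SE 0.86) and Phf11d by −4.04 (SE 0.61). Phf11d kept 0.0781, 0 and 0.145 CPM in WT EBs and 1.94, 0.975 and 1.55 CPM in KD EBs. In these 6 genes the KD EB libraries were all under 2 CPM, and no part of the difference was tested further.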

How the results depend on the processing

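The count of 15133 genes called between the stages stayed within 1.5 times under the 6 WT libraries alone (14013), scaling by library size alone (15148), DESeq2 (15345), no filter (15906), 1 CPM in 3 libraries (13628) and the length offset (14571), and fell to 9685 when glmTreat required a change beyond 2-fold. Leaving out 1 WT library gave 14702 to 15235 calls, and 3416 to 5507 for the difference between WT and KD cells, which the other settings put between 4023 and 5348. The replicate block gave 14922 calls and 4023 for that difference, although the numbers do not pair the libraries. It ended the call of Pax6 (edgeR adjusted p = 0.0654). Switched genes numbered 596 and 528 at limits of 0.5 and 0.2 CPM. With scaling by library size alone the log2 fold change turned to 0.040 in Cdkn1a, 0.042 in Tet1, 0.23 in Phgdh and 0.26 in Kat7. With a length offset it turned negative in Nes (−0.66), Fn1 (−1.23), Ezh1 (−0.33), Ezh2 (−0.41), Smarca4 (−0.35), Smarcc1 (−0.42), Trim71 (−0.40), Kit (−0.14), Gata2 (−0.10), Zmat3 (−0.093), Brpf1 (−0.25), Ndufs1 (−0.61) and Slc7a11 (−0.13), and positive in Cdkn1a (0.081), mt-Nd1 (0.43), mt-Cytb (0.045), Phgdh (0.14), Gsc (0.22), Trh (0.38), Cldn3 (0.37) and Cldn4 (0.073). The length offset takes out any trend with length, and whether that trend is technical was not tested. Besides Gata2 and Pax6, Ckm lost its call without any single WT library other than ESC replicate 3 (edgeR adjusted p from 0.0562 to 0.0639), and Hist3h2a without ESC replicate 1 (0.0602) or 3 (0.0536). Genes near the floor of 3 counts are limited by depth.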

Other observations

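Over chromosomes, the median log2 fold change was 1.03 on the X chromosome, 4.86 over 8 genes of the Y chromosome and −0.89 over 16 mitochondrial genes, against 0.17 over all tested genes. On autosomes it ran from −0.38 on chromosome 17 and −0.26 on chromosome 7 to 0.75 on chromosomes 3 and 18 and 0.76 on chromosome 14.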
